A study of Mus musculus with 2 samples.

Results

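Neutrophils of the Kif3aΔTub kidney were 61 of the 7236 cells kept from the knockout library, or 0.843% (95% Clopper-Pearson interval 0.645 to 1.08), and 0 of the 4371 cells kept from the WT library, which allows a share of up to 0.0686%. Across both libraries they were 61 of 11607 kept cells. Kept barcodes had 500 or more UMIs, 200 or more detected genes and a mitochondrial share of UMIs below 50%. It was called a neutrophil when S100a8 and S100a9 together made up at least 2% of its UMIs and C1qa, C1qb and C1qc together gave fewer than 5. The members were thus chosen by measured S100a8, S100a9 and C1q UMIs, and these genes are given as a description.

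The study profiled kidney cells of 5-week-old mice by 10x Chromium 3' single-cell RNA-seq, with 1 library of genotype WT, described as control, and 1 library of genotype KO (Kif3aΔTub), described as disease. Kif3a encodes a kinesin motor subunit needed to build primary cilia, and in the Kif3aΔTub mouse it is deleted in the renal tubule. The labels name neither the Cre driver nor the strain, and they do not say how many mice entered a library. Dead cells were removed and red cells lysed before loading. Whether the kidneys were perfused is not given, so neutrophils of the blood and of the tissue cannot be told apart. With 1 library per genotype no difference has a replicate check, no test between genotypes was made, and every interval covers counting error only.

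Neutrophils are short-lived granulocytes that leave the bone marrow as mature cells under granulocyte colony-stimulating factor and enter inflamed tissue along gradients of CXC chemokines. Their granule proteins are made in sequence during marrow development, so a mature cell carries transcripts of late granule and surface genes and few of the early ones. In an inflamed kidney they are known as early infiltrating cells that release proteases, oxidants and interleukin 1.

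The knockout library supplied the cells they were set against. There were 146 monocytes (at least 5 Lyz2 UMIs and at least 3 UMIs over Ccr2, Ly6c2, Plac8, Chil3, F13a1, Ms4a4c and Treml4), 781 macrophages (at least 5 UMIs over the C1q genes), 4326 tubule cells and 397 endothelial cells. The WT library gave 7 cells by the monocyte rule and 3 by the macrophage rule, too few to compare. Neutrophils were shallow, with a median of 1048 UMIs and 526 genes per cell, against 5210 UMIs in monocytes, 5007 in macrophages and 10817.5 in tubule cells. Summed over cells they held 71915 UMIs, monocytes 908287 and macrophages 5965623, so 0 UMIs in neutrophils allows a level of up to 41.7 CPM (UMIs of a gene scaled to a fixed total). Median mitochondrial shares were 3.25% in neutrophils, 3.52% in monocytes and 4.24% in macrophages. Scrublet marked 0 neutrophils, 6 monocytes and 54 macrophages as doublets. Over all kept cells the median mitochondrial share was 26.8% in the WT and 7.55% in the knockout library, and 2564 WT and 706 knockout barcodes stood at or above 50%, none of which reached the S100a8 and S100a9 threshold. The libraries shared 20 barcodes, 1 of which was a neutrophil barcode. Kif3a gave 0 UMIs in neutrophils, 12.1 CPM over kept knockout cells and 10.3 CPM over kept WT cells. The deleted part is not given and a 3' tag may lie outside it, so these levels check nothing.

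S100a8 and S100a9, the subunits of the antimicrobial protein calprotectin, were found in all 61 cells. S100a8 gave a lowest, median and highest count of 5, 34 and 134 UMIs per cell. S100a9 gave 8, 45 and 229. Together they ranged from 2.04% to 24.3% of a cell's UMIs with a median of 8.26%. The member nearest the threshold had 2.04% and was also the deepest, at 6900 UMIs, and the next had 2.17% at 784 UMIs. Just outside stood 7 barcodes between 1% and 2%, the closest at 1.96% with 1022 UMIs, and 4 of these 7 had under 2000 UMIs, as did 59 of the 61 members. One of the 7 was a Scrublet doublet of 10636 UMIs with 43 Aqp2 UMIs, and another held 121 UMIs of the monocyte genes. In WT, not 1 S100a8 or S100a9 UMI was found in any kept cell. Of the S100a8 and S100a9 UMIs of the knockout library, 84.9% lay in the 61 members.

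**Figure D1:**
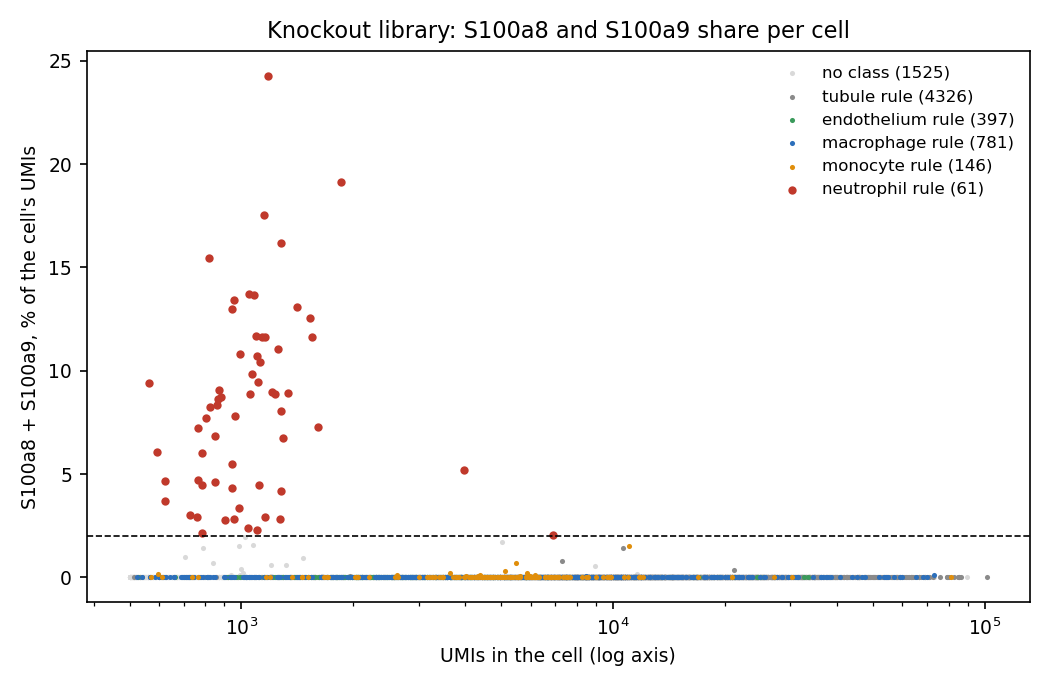
Share of S100a8 and S100a9 in each kept cell of the knockout library (percent of the cell's UMIs, vertical axis) against its UMIs (log horizontal axis), coloured by class, with the 2% threshold dashed. The 61 neutrophils lie above the line, 59 of them under 2000 UMIs, while monocytes and macrophages spread along the bottom at greater depths.

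The label was checked against marker genes that the rule did not use. Of 16 neutrophil markers, 14 had at least 20 UMIs over both classes compared. Leaving out S100a8 and S100a9, which chose the cells, the other 12 were all higher in neutrophils than in monocytes and than in macrophages. A gene was counted as higher or lower at 2-fold or more with a 95% counting interval of the log2 ratio that left out 0. Over all 5634 genes compared with monocytes, 9.48% were higher by this count and 9.35% lower, and over all 11014 genes compared with macrophages 7.46% were higher and 6.5% lower. Against tubule cells 7.08% of 14456 genes were higher and 7.55% lower. These shares include many genes of low level. Among genes with a mean level of 50 CPM or more, 18.5% were higher and 15% lower than in monocytes, and 23.5% higher and 18.2% lower than in macrophages. Most listed genes reach that level, so the counts of the lists below are to be set beside these larger shares. The counts are descriptions of the listed genes, and nothing about a list as a whole is read from them. Over monocytes, 534 genes were higher and 527 lower, and with trimmed-mean factors for the totals 439 and 735. The remaining markers were Ly6g, the surface antigen used to sort mouse neutrophils, with 2 UMIs, and Acod1 with 1. Markers of other cells were counted in the same way. Eosinophil markers gave 4 UMIs, all of Siglecf, and mast cell and basophil, B cell and erythroid markers gave none. Cd3d was the only T and NK marker found, with 1 UMI, and Pf4 the only platelet marker, with 1 UMI. Dendritic cell markers gave 4 UMIs, all of Itgax. Of 12 monocyte markers, 9 were found, with 263 UMIs or 3657 CPM in all, of which Lyz2 gave 165, Plac8 52 and Chil3 25. These genes also chose the monocytes, so their higher level there was fixed by that rule. Ace, a monocyte marker outside the rule, had 5 UMIs, all in the deepest member. Macrophage markers gave 31 UMIs or 431 CPM in all, 17 of them Apoe. Of those outside the rules, Adgre1, Mrc1, Ms4a7 and Mertk were at 0 UMIs.

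Csf3r, the receptor for granulocyte colony-stimulating factor, stood at 1585 CPM (1308 to 1904) in neutrophils, 18.7 in monocytes, 7.04 in macrophages and 0.223 in tubule cells. It was found in 47 of 61 members, with 0, 2 and 6 UMIs as lowest, median and highest count. The level in neutrophils was thus far above every other class, with log2 ratios of 6.37 (5.66 to 7.23) over monocytes and 7.80 (7.29 to 8.36) over macrophages. A Csf3r UMI was seen in 77.0% of neutrophils (64.5 to 86.8), 11.6% of monocytes, 4.87% of macrophages and 0.162% of tubule cells, and after thinning each cell to 500 UMIs in 54.1%, 0%, 0.768% and 0.0231%. Cxcr2, the receptor for the neutrophil-attracting CXC chemokines, stood at 1001 CPM (783 to 1261) against 1.10 and 0.503 in monocytes and macrophages. It was seen in 41 members, and 54 members had Csf3r or Cxcr2. The 7 members with neither had a median of 1096 UMIs, close to the 1044 of the others.

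Windows of 250 bases before the annotated start, from RefSeq on build GRCm38.p6, are printed for 4 genes high in these cells: both calprotectin genes, the receptor Csf3r and Retnlg, which divides the members further on. Of 15 genes looked up, 13 had an entry. Each window is given 5' to 3' on the gene's strand, at chr3:90668821-90669070 (plus strand) for S100a8, chr3:90695722-90695971 (minus strand) for S100a9, chr4:126024409-126024658 (plus strand) for Csf3r and chr16:48872358-48872607 (plus strand) for Retnlg. Capitals mark matches on either strand to TTGCNNAA, a core bound by C/EBP factors, or to GAGGAA, the core of PU.1 sites.
S100a8: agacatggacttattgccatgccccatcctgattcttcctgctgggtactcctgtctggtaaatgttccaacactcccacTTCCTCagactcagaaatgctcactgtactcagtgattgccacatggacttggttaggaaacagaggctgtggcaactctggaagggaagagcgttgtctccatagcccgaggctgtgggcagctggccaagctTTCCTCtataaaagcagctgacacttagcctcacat
S100a9: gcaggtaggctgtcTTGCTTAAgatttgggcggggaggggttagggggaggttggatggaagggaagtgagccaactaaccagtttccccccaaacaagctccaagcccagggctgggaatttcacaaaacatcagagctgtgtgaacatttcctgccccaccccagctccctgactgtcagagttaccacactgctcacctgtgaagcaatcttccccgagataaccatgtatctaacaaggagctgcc
Csf3r: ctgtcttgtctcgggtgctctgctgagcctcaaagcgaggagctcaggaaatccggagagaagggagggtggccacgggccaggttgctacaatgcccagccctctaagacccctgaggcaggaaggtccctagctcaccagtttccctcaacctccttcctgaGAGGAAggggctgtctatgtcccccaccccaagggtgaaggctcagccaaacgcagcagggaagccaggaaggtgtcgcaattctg
Retnlg: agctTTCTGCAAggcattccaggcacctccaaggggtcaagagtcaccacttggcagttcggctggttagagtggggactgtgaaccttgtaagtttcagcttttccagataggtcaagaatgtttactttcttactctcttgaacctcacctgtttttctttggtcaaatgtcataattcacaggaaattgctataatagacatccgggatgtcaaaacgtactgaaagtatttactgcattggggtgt
The window of S100a8 held 2 matches to GAGGAA and that of Csf3r 1, while those of S100a9 and Retnlg each held 1 match to TTGCNNAA. Of all 32851 mouse windows of this length, 9.56% held TTGCNNAA and 23.3% held GAGGAA. Among the 13 genes, 3 windows held the first and 4 the second. None of the 4 windows printed held both motifs, and a match is a description of sequence only.

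Primary and secondary granule genes were split between 8 at 0 UMIs and 7 that were found. Of the 15, Mpo, Elane, Ctsg, Ms4a3, Ltf, Camp, Ngp and Fcnb had 0 UMIs in all 61 cells, while Hp had 202, Lyz2 165, Lcn2 105, Pglyrp1 80, Chil3 25, Cd177 5 and Prtn3 1. Those that had enough UMIs were mixed, with 2 higher and 3 lower of 6 against monocytes (median log2 ratio -0.76), where Lyz2 and Chil3 are genes of the monocyte rule, and 3 higher and 1 lower of 6 against macrophages (median 3.34). Hp (haptoglobin, which binds free haemoglobin) stood at 2809 CPM in neutrophils, 835 in monocytes and 12.1 in macrophages, with 1148 in endothelium. Pglyrp1, a peptidoglycan-binding granule protein, stood at 1112, 55.0 and 1.34 CPM. Among 14 late genes, by contrast, 9 of 11 were higher and 0 lower than in monocytes (median 2.42), and 10 of 11 higher and 0 lower than in macrophages (median 7.78). The median over all genes compared was -0.19 for monocytes and -0.07 for macrophages. With genes at 0 in a class set to the level of 3 UMIs both became 0, and the granule medians kept their values. A ratio that this would carry past no difference was held at 0, so the medians of 0 rest on that limit. Later medians with genes at 0 set to 3 UMIs were made in the same way.

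Retnlg, a resistin-like secreted protein of granulocytes, was the top gene of the late group at 8329 CPM (7676 to 9024), with 0 UMIs in monocytes and 1.51 CPM in macrophages. That is at least 2522-fold higher than in monocytes. Mmp9, the gelatinase of tertiary granules, stood at 1251 CPM (1006 to 1538) against 14.3 and 1.51, and was seen in 41 members. Mmp8, the neutrophil collagenase, stood at 306 CPM in 13 members, against 79.3 and 1.34. Wfdc21 stood at 640 CPM in neutrophils, 91.4 in monocytes and 0.838 in macrophages. No UMI of Prok2 was found.

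Protease inhibitors and stefins were among the genes with the widest gaps to the other myeloid classes. Slpi, the secretory leukocyte protease inhibitor, stood at 3657 CPM (3228 to 4127) in neutrophils, 79.3 in monocytes, 3.18 in macrophages and 2.01 in tubule cells. Asprv1, an aspartic protease, gave 73 UMIs in 28 members and 0 in monocytes and macrophages, at least 307-fold and at least 2019-fold higher. Stfa2l1 and BC100530, both of the stefin A family of cysteine protease inhibitors, stood at 793 and 640 CPM, with 0 UMIs in monocytes. BC100530 came from 7 members only, 24 of its 46 UMIs from 1 cell. Stefin A genes are near-identical copies, so reads may be split among them. Of the 14 genes of the group 5 of 10 were higher and 2 lower than in monocytes (median 1.00), and 7 of 10 higher and 1 lower than in macrophages (median 2.32). The lower ones included S100a10, an annexin partner, at 27.8 CPM against 893 in monocytes and 341 in macrophages. S100a4 stood at 69.5 CPM against 566 in monocytes, and all UMIs of both genes came from the deepest member.

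**Figure D2:**
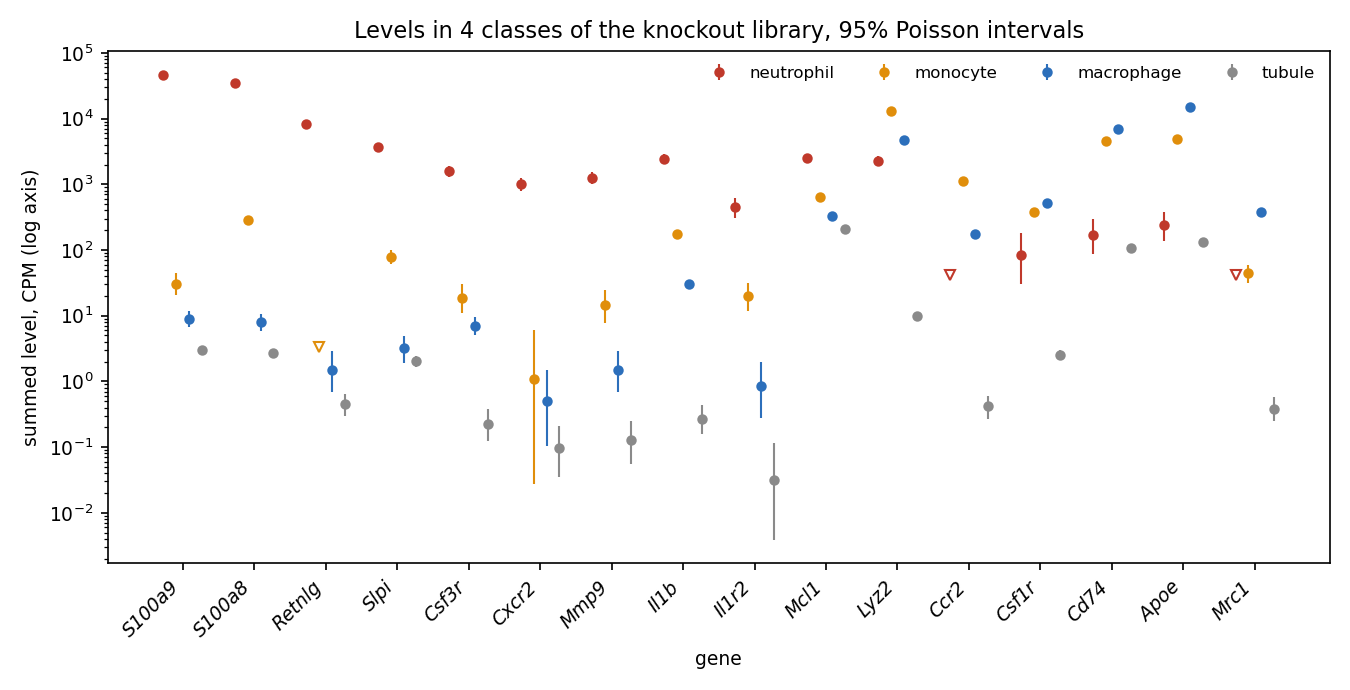
Summed levels of 16 genes in neutrophils, monocytes, macrophages and tubule cells of the knockout library (CPM, log axis) with 95% Poisson intervals, and open triangles at 3 UMIs where a class had none. S100a9 falls from 46082 CPM in neutrophils to 2.98 in tubule cells, while Cd74 and Apoe are lowest in neutrophils among the 3 myeloid classes. Ccr2, a gene of the monocyte rule, and Mrc1 have 0 UMIs in neutrophils, and Mrc1 did not separate from monocytes.

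Genes were also named by rank. The 12 highest over monocytes were Retnlg, Asprv1, Stfa2l1, BC100530, Cxcr2, H2-Q10, Mmp9, Csf3r, G0s2, Mxd1, Slpi and Il1r2. Those highest over macrophages included 8 of these (Asprv1, Retnlg, Cxcr2, BC100530, Stfa2l1, Slpi, Mmp9 and H2-Q10) and also Pglyrp1, Wfdc21 and Ifitm1. Mxd1, a repressor that opposes Myc, was spread over 32 members at 598 CPM, against 12.1 in monocytes and 10.4 in macrophages. H2-Q10, a secreted class I molecule with close paralogs, stood at 626 CPM in 25 members, against 1.10 and 0.838. In contrast, G0s2, an inhibitor of triglyceride lipase, stood at 473 CPM but came from 9 members, with 22 of 34 UMIs in 1 cell. Ifitm1, an interferon-inducible membrane protein, stood at 2294 CPM in 29 members, with 51 of 165 UMIs in 1 cell. The lists of names come from pairs that share the neutrophil cells, so their overlap is given as a count only.

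Chemotaxis receptors were counted in both directions. Of 14 receptors, 7 of 11 were higher and 2 lower than in monocytes (median 1.84), and 9 of 13 higher and 3 lower than in macrophages (median 2.85). Ccr1, a receptor for CC chemokines, stood at 946 CPM against 184 and 132. C5ar1, the receptor for complement C5a, stood at 542 CPM against 175 and 181. Cxcr4, which holds neutrophils in the marrow and marks aged ones, stood at 264 CPM in 16 members against 24.2 and 10.4. The formyl peptide receptors Fpr1 and Fpr2 each had 9 UMIs, and Cxcr1 had 0. Ccr2, the receptor that draws monocytes out of the marrow, was at 0 UMIs against 1142 CPM in monocytes, but it is a gene of the monocyte rule, so that level was raised by the choice of cells. Against macrophages, which were chosen without it, it was at least 4.26-fold lower. Cx3cr1 had 2 UMIs in 1 member.

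Adhesion genes were counted as higher or not counted. Of 14, 7 of 13 were higher and 0 lower than in monocytes (median 1.02), and 11 of 14 higher and 0 lower than in macrophages (median 2.39). Selplg, the selectin ligand used in rolling, stood at 626 CPM in neutrophils, 88.1 in monocytes and 48.3 in macrophages. Cd44, a hyaluronan receptor, stood at 556, 190.5 and 40.1 CPM. Itgam, the CD11b integrin chain, stood at 348 CPM and did not separate from monocytes at 293 (log2 ratio 0.27, -0.41 to 0.84). Itgal had 11 of its 20 UMIs in the deepest member, and without that cell its log2 ratio over monocytes was 0.54 and it was no longer counted. The same held for Itgb2, the shared β2 integrin chain, whose log2 ratio of 1.02 became 0.86, so that 5 of the genes were higher than in monocytes without that cell. Over macrophages Cd47 lost its call in the same way, from 1.07 to 0.98. Icam1 and Pecam1 had 0 UMIs.

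Interleukin 1 genes led the cytokine list. Il1b, which encodes interleukin 1β, stood at 2461 CPM (2112 to 2852) in neutrophils, 175 in monocytes, 30.3 in macrophages and 0.271 in tubule cells. It was found in 41 members, with 0, 2 and 28 UMIs as lowest, median and highest count. Neutrophils were thus highest, with log2 ratios of 3.81 (3.50 to 4.13) over monocytes and 6.34 (6.03 to 6.65) over macrophages. An Il1b UMI was seen in 67.2% of neutrophils, 25.3% of monocytes, 9.35% of macrophages and 0.254% of tubule cells, and after thinning to 500 UMIs in 52.5%, 5.48%, 1.79% and 0%. Both natural brakes on this cytokine were higher too. Il1rn, the receptor antagonist, stood at 389 CPM against 23.1 and 7.88, and Il1r2, the decoy receptor, at 445 against 19.8 and 0.838. Il1rap, the accessory chain of the receptor, stood at 125 CPM against 2.20 and 5.53. Il1a and Il18bp had 1 UMI each and Il6 and Il10 had 0. Tnf had 2 UMIs, both in 1 cell. Of the 18 cytokine genes, 4 of 8 were higher and 1 lower than in monocytes (median 2.26), and 5 of 12 higher and 0 lower than in macrophages (median 2.09). The lower one was Il18, with 0 UMIs, a call that ended without the deepest member because the total was then smaller.

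Chemokine genes were divided. Of 14, 3 of 10 were higher and 4 lower than in monocytes (median -0.94), and 3 of 12 higher and 4 lower than in macrophages (median -0.40). Ccl6 was the broad one, at 3754 CPM (3320 to 4230) in 44 members against 1232 in monocytes and 407 in macrophages. Cxcl2, itself a ligand of Cxcr2, averaged 1071 CPM but rested on 5 members, with 64 of its 77 UMIs in 1 cell. Cxcl3 had 13 UMIs in 3 members. Ccl2 (1 UMI) and Ccl7 (0 UMIs), which attract monocytes, were lower than in monocytes, at 279 and 132 CPM, and than in macrophages, at 225 and 212.

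By count of UMIs the 61 cells carried a large part of several factors in the knockout library. Of 665 Il1b UMIs over all kept knockout cells, 177 (26.6%, 23.3 to 30.1) lay in neutrophils, 23.9% in monocytes and 27.2% in macrophages. Hence 61 neutrophils held about as many Il1b UMIs as 781 macrophages, 177 against 181. The WT library held 7 Il1b UMIs, or 0.162 CPM against 8.13 in knockout. Neutrophils held 32 of 82 Il1r2 UMIs and 263 of 585 Slpi UMIs, 17.1% of Il1rn, 57.6% of Cxcr2, 46.2% of Csf3r, 57.3% of Mmp9 and 89.1% of Retnlg UMIs. Mmp8 lay mostly in monocytes, at 69.9%, with 21.4% in neutrophils. Il1r1, the signalling receptor for interleukin 1, had 0 UMIs in neutrophils. That allows up to 41.7 CPM, above its 32.7 CPM in tubule cells, so a lower level in neutrophils is not shown. Tubule cells held 82.2% of its 2496 UMIs, but also 62669738 of all 81800126 kept knockout UMIs.

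**Figure D3:**
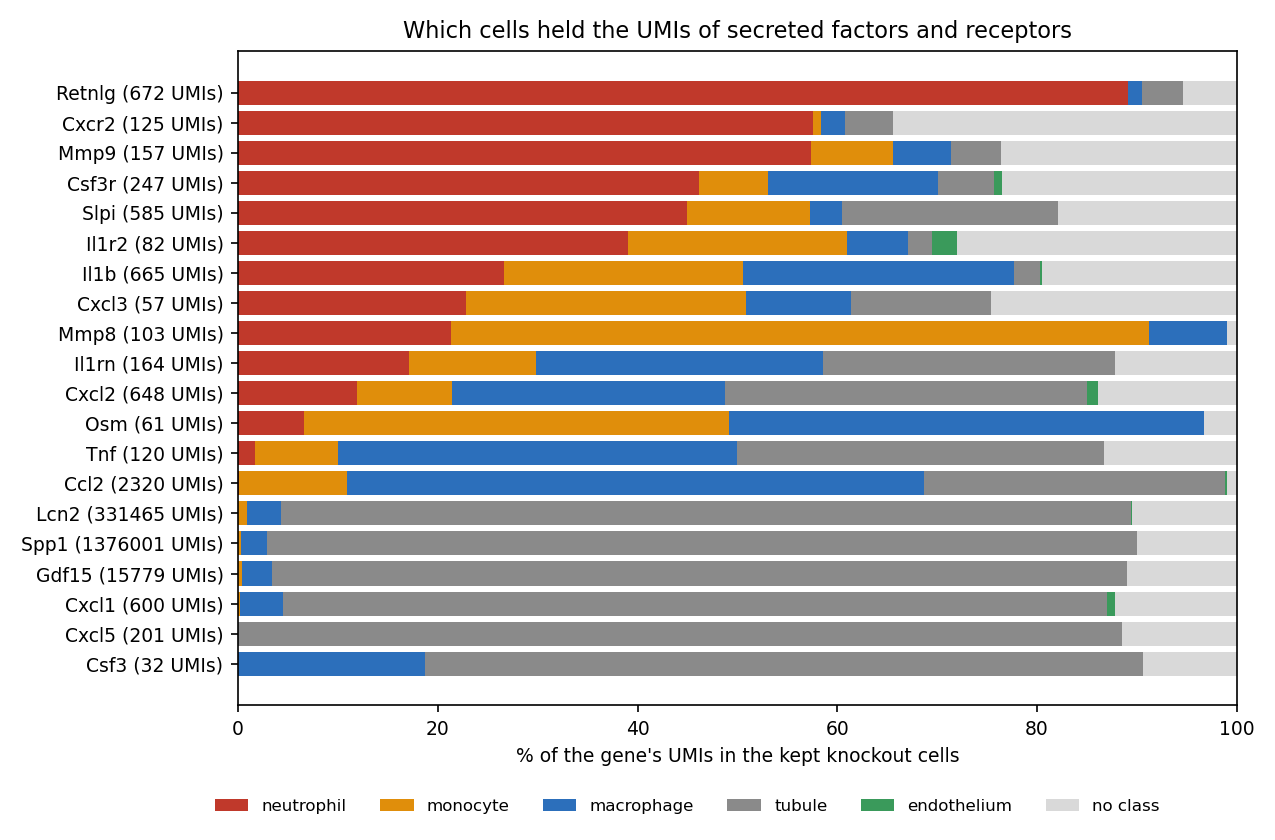
Share of each gene's UMIs over all kept knockout cells (percent, horizontal axis) that lay in each class, with the total beside the gene's name. Neutrophils hold 89.1% of Retnlg and 26.6% of Il1b but 0% of Cxcl1, Cxcl5 and Csf3, whose largest bars are tubule cells.

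Ligands and growth factor for the neutrophil receptors were also looked up in the other cells, in a list of 20 genes with vessel adhesion genes. In neutrophils 4 of 7 were higher and 0 lower than in monocytes (median 1.65). Against macrophages 3 of 9 were higher and 1 lower (median 0.59, or 0 with genes at 0 set to 3 UMIs). Cxcl2 and Cxcl3 were highest in neutrophils, at 1071 and 181 CPM, though in few members. Cxcl1, Cxcl5 and Csf3 had 0 UMIs in neutrophils. That allows up to 41.7 CPM, above the levels given here for other cells, so a lower level in neutrophils is not shown. Cxcl1 had 600 UMIs in the knockout and 7 in the WT library, and 82.5% of the knockout UMIs lay in tubule cells. Cxcl5 had 201 and 0, with 88.6% in tubule cells. Csf3, the granulocyte colony-stimulating factor that Csf3r binds, had 32 and 0, with 23 in tubule cells and 6 in macrophages. Tubule cells also held 62669738 of the 81800126 kept knockout UMIs, so a large share there is partly a matter of how many UMIs they gave. In CPM, Cxcl1 stood at 7.90 in tubule cells and 4.36 in macrophages, and Cxcl5 at 2.84 in tubule cells with 0 UMIs in macrophages. Csf3 stood at 0.367 CPM (0.233 to 0.551) in tubule cells and 1.01 (0.369 to 2.19) in macrophages. The macrophage UMIs all came from 1 of 781 cells and those of tubule cells from 13 of 4326. The 2 levels are therefore not ranked. Sele, the endothelial selectin that neutrophils roll on, had 88 and 5 UMIs, 84.1% of the knockout ones in endothelium. Icam1, the vessel and epithelial ligand of the β2 integrins, had 1587 and 99 UMIs. In endothelium its level was close in both libraries, at 50.5 CPM (40.3 to 62.4) in knockout and 44.3 (28.7 to 65.4) in WT. In tubule cells it stood at 17.8 and 1.73 CPM. The libraries differed in kept UMIs, with 81800126 in knockout and 43262363 in WT, and in their cell makeup.

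Innate sensing genes were led by C-type lectins and activating receptors. Of 22, 9 of 20 were higher and 1 lower than in monocytes (median 1.18), and 10 of 21 higher and 1 lower than in macrophages (median 2.17). Clec4d, a lectin that binds fungal and mycobacterial lipids, stood at 681 CPM against 111 and 19.6, and Clec4e, which recognises mycobacterial cord factor, at 487 against 127 and 7.54. Trem1, an amplifier of inflammatory signalling, stood at 222 CPM against 20.9 and 5.20. Nlrp3, the inflammasome sensor, stood at 250 CPM in 16 members against 36.3 and 18.9, whereas Pycard, its adaptor, was the gene counted as lower in both comparisons, at 83.4 CPM against 436 and 308. Casp1, the caspase that cleaves pro-interleukin 1β, had 1 UMI. Of 14 Fc and inhibitory receptors, 4 were higher and 2 lower than in monocytes (median 0.56), and 7 higher and 2 lower than in macrophages (median 1.07). The lower ones, Fcgr1 and Fcgr2b, had 0 UMIs, while Fcer1g, the shared Fc signalling chain, was in 60 of 61 members at a level near that of monocytes (4491 and 3929 CPM).

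The NADPH oxidase was uneven. Cybb, its membrane catalytic subunit, stood at 111 CPM in 4 members, lower than in monocytes (873) and macrophages (437). Of its 8 UMIs 5 were in the deepest member, and without that cell it stood at 46.1 CPM. The cytosolic subunit Ncf1 stood at 320 CPM against 100.2 and 91.9, and the GTPase Rac2 at 1140 against 320.4 and 207. Over the 8 genes, 2 of 7 were higher and 1 lower than in monocytes (median 0.51), and 4 of 8 higher and 1 lower than in macrophages (median 1.17).

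Survival genes included Mcl1 and Pim1 among those counted as higher. Of 15, 3 were higher and 1 lower than in monocytes (median 0.30), and 4 higher and 0 lower than in macrophages (median 0.39). Mcl1, the short-lived anti-apoptotic protein on which neutrophils depend, stood at 2545 CPM in 56 members, against 635 and 327. Pim1, a kinase induced by colony-stimulating factors, stood at 501 CPM against 129 and 49.8. Of 16 growth factor and cytokine receptors, 4 of 15 were higher and 1 lower than in monocytes (median 0.07), and 7 of 16 higher and 1 lower than in macrophages (median 1.08). The lower one was Csf1r, the receptor that sustains macrophages, at 83.4 CPM against 379 and 528.

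Among 20 transcription factors of the granulocyte and monocyte lines, 5 of 18 were higher and 4 lower than in monocytes (median 0.87), and 10 of 18 higher and 3 lower than in macrophages (median 1.97). Cebpd, a C/EBP factor induced in inflammation, stood at 1363 CPM against 212 and 148, and Klf2, a quiescence factor, at 2169 against 441 and 49.5, with 2258 in endothelium. Cebpb, the C/EBP factor of emergency granulopoiesis, was higher than in macrophages at 2795 CPM against 337, and its log2 ratio over monocytes was 0.86. Maf, which takes part in macrophage differentiation, had 0 UMIs, at least 2.01-fold lower than in monocytes and at least 6.12-fold lower than in macrophages. Irf8, the monocyte-lineage factor, had 3 UMIs, all in the deepest member. Nr4a1 also had 3 UMIs in that cell alone, and its log2 ratio over macrophages of 3.90 was 1.23 without it. Immediate-early genes were high beside these: of 17 genes of a dissociation stress list, 9 of 14 were higher and 1 lower than in monocytes, and 9 of 17 higher and 1 lower than in macrophages, with Dusp1 at 820 CPM against 39.6 and 19.4. Fos, Junb, Jun and Atf3 are on both lists. Whether tissue preparation had a part in these levels was not tested.

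Subunits of oxidative phosphorylation were lower where they separated. Of 22 nuclear-encoded subunits of oxidative phosphorylation, 0 were higher and 6 lower than in monocytes (median -0.59), and 0 higher and 8 lower than in macrophages (median -0.73). Atp5b, the catalytic subunit of ATP synthase, stood at 125 CPM against 350.1 and 543, and Cox6c at 195 against 604 and 792. The summed level of the 22 was 4978 CPM in neutrophils, 8213 in monocytes, 9790 in macrophages and 16571 in tubule cells. Tubule markers were also lowest in neutrophils, at a summed 890 CPM against 1625 in monocytes and 2696 in macrophages. The part of tubule RNA in the subunit levels was not tested. Glycolysis and hypoxia genes were mixed, with 2 higher and 2 lower of 17 against monocytes and 5 higher and 0 lower of 21 against macrophages. Slc2a3, a high-affinity glucose transporter, stood at 167 CPM in 9 members against 1.10 and 2.68, with too few UMIs to be compared with monocytes. The cell cycle list gave 5 UMIs over 3 genes, and Mki67 and Top2a had 0 UMIs, at least 1.65-fold and at least 1.80-fold lower than in macrophages.

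Transcripts for antigen presentation by MHC class II were few. Cd74, the invariant chain, stood at 167 CPM against 4500 in monocytes and 7035 in macrophages, and 8 of its 12 UMIs were in the deepest member. H2-Eb1 had 2 UMIs and H2-Aa 3, against 1506 and 1759 CPM in monocytes and 2211 and 2187 in macrophages. Of 10 class II genes, 0 were higher and 6 of 8 lower than in monocytes (median -4.94, or -3.86 with genes at 0 set to 3 UMIs), and 0 higher and 6 of 9 lower than in macrophages (median -5.34, or -2.79). Of the class I genes 0 of 7 and 0 of 8 were counted in either direction, and H2-D1 stood at 1432 CPM against 1011 and 836. Phagocytosis and lysosome genes were counted next. Of 20, 0 were higher and 10 of 17 lower than in monocytes (median -1.68, or -1.37), and 1 higher and 14 of 19 lower than in macrophages (median -1.75, or -1.54). Apoe, which carries lipids, stood at 236 CPM against 4843 and 15128, and Ctss, a lysosomal protease, at 209 against 1991 and 2257. Of 15 Ctss UMIs 9 were in the deepest member, and without that cell it stood at 92.3 CPM. The gene higher than in macrophages was Fabp5.

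The genes lowest against monocytes by rank included Fn1, Arg1, Fcgr2b, H2-DMb1, Ctsc, Ly86, H2-Eb1, Saa3, H2-DMa, H2-Aa and Vcan. Fn1, the matrix protein fibronectin, had 0 UMIs against 940 CPM, at least 22.5-fold lower, and Arg1, the arginase of alternatively activated cells, 0 against 560.4 CPM, at least 13.4-fold lower. Those lowest against macrophages included Ly86, H2-Eb1, Apoe, Ms4a7, Mrc1, Ctsc, H2-Aa, Aif1, H2-DMa, Fcgr2b and Cd74. Ly86, a partner of a Toll-like receptor homologue on B cells and macrophages, had 0 UMIs against 529 CPM, at least 12.7-fold lower, and Mrc1, the mannose receptor, 0 against 385 CPM, at least 9.23-fold lower. Ctsc, the protease that activates granule serine proteases, had 1 UMI, against 958 CPM in monocytes and 983 in macrophages.

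Lyz2, the myeloid lysozyme, rested largely on 1 cell. It stood at 2294 CPM against 13022 in monocytes and 4663 in macrophages, but 85 of 165 UMIs came from the member of 6900 UMIs and 33 members had none. Without that cell the level was 1230 CPM and the log2 ratios went from -2.50 to -3.39 over monocytes and from -1.02 to -1.91 over macrophages. The same member held 36 of 52 Plac8 UMIs, and made up 9.59% of the UMIs of the class. Apart from its S100a8 and S100a9 share of 2.04% it met the monocyte rule, with 38 UMIs of the monocyte genes. It had 0 Il1b and 0 Cxcr2 UMIs, 2 of Csf3r and 6 of Retnlg. A member of 3974 UMIs (5 Lyz2 UMIs, 9 of the monocyte genes) and another of 1096 (9 and 8) also reached the monocyte limits. Whether these members were neutrophils or monocytes was not tested.

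**Figure D4:**
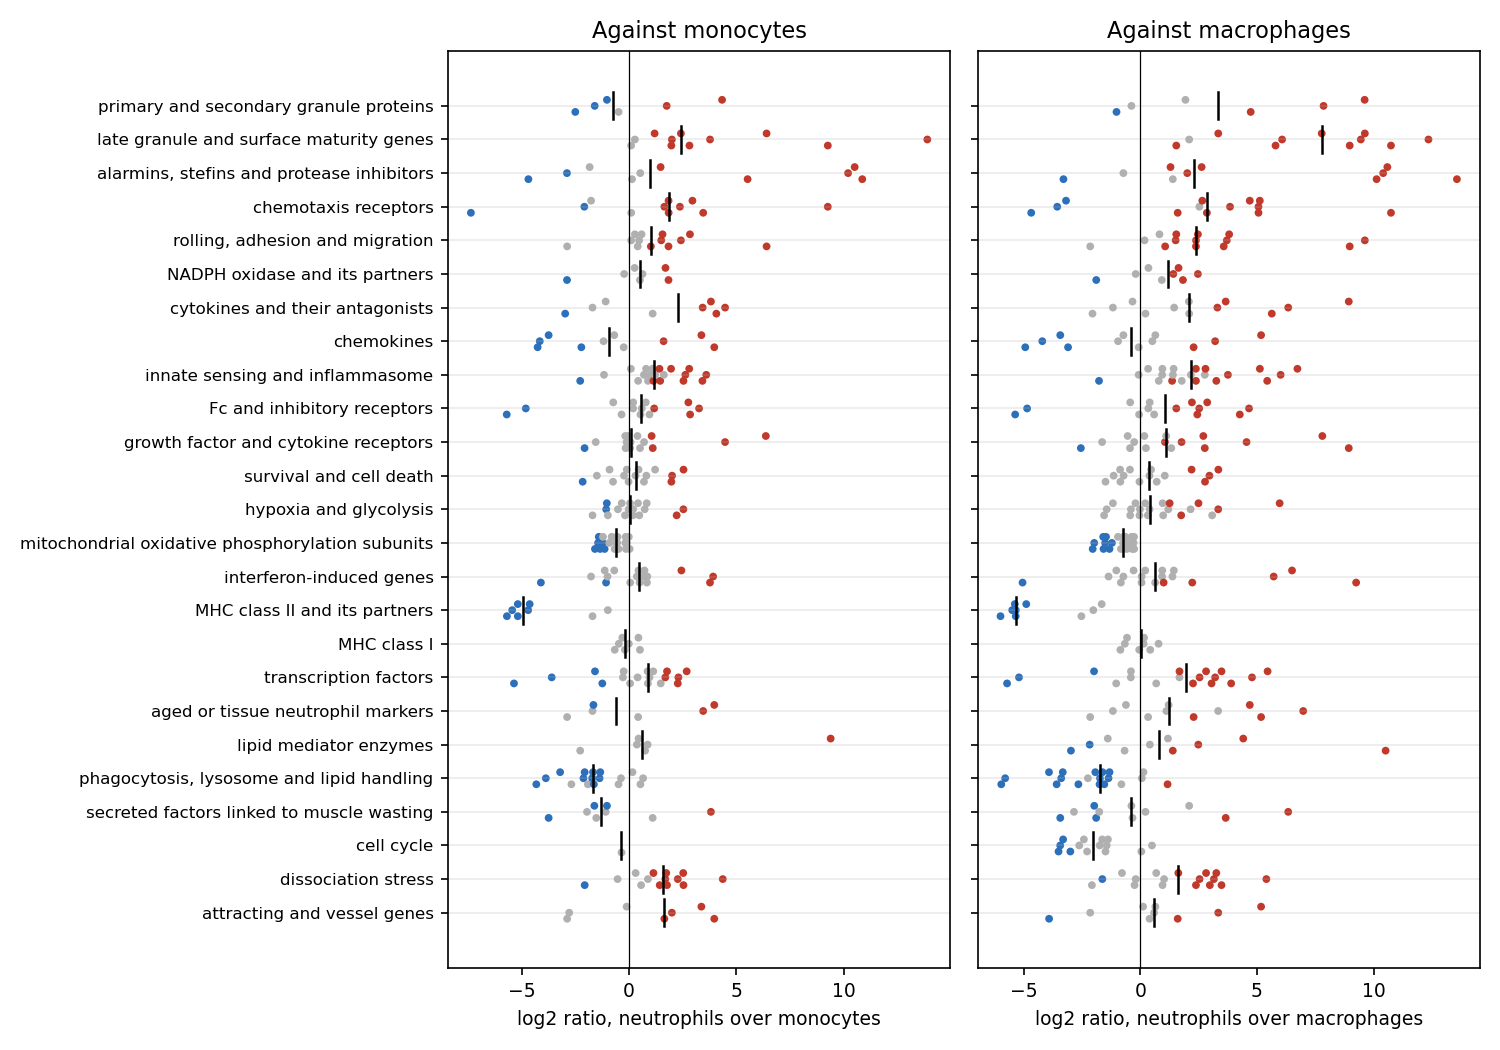
Log2 ratios of neutrophils over monocytes (left) and over macrophages (right) for members of 25 gene lists with at least 20 UMIs over both classes, each point a gene, red or blue where counted as higher or lower, black bars the list medians. Late granule genes reach medians of 2.42 and 7.78, and MHC class II genes -4.94 and -5.34.

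Secreted factors linked to muscle wasting, the subject of the series title, were looked up as a list. Of 19, 1 of 8 was higher and 3 lower than in monocytes (median -1.31, or -1.06 with genes at 0 set to 3 UMIs), and 2 of 11 higher and 3 lower than in macrophages (median -0.38, or -0.26). Il1b was the gene higher in both, and Osm, with 4 UMIs in 4 members, was the other higher than in macrophages. Mstn, Inhba, Gdf11, Lif and Il6 had 0 UMIs in neutrophils. Lcn2, a secondary granule protein that injured tubule also makes, stood at 1460 CPM, below monocytes at 2990 and tubule cells at 4503. As a mean of per-cell levels its log2 ratio over monocytes was 1.73 instead of -1.03, and its call ended without the deepest member. Spp1, or osteopontin, stood at 1613 CPM, below monocytes at 4954, macrophages at 6005 and tubule cells at 19109. Tubule RNA was present in these cells. Of 10 tubule markers, 9 were found in neutrophils at a summed 890 CPM, against 1625 in monocytes, 2696 in macrophages and 7110 in tubule cells. As a percent of the tubule level, Spp1 in neutrophils was 8.44 (6.98 to 10.1), Lcn2 32.4 (26.5 to 39.3), Fxyd2 7.57, Clu 10.8, Aqp2 15.5 and Epcam 11.3. In monocytes and macrophages Spp1 was 25.9 and 31.4, Lcn2 66.4 and 42.4, and Fxyd2 15.4 and 13.9. There Clu was 58.0 and 38.1, Aqp2 8.41 and 52.3, and Epcam 21.1 and 38.3. A neutrophil with 10 Cdh16 and 16 Aqp2 UMIs held most neutrophil UMIs of those genes, 10 of 13 and 16 of 23. The part of tubule RNA in the Lcn2 and Spp1 levels of neutrophils, monocytes and macrophages was not tested. Neutrophils held 0.0317% of the library's Lcn2 UMIs and 0.00843% of its Spp1 UMIs.

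The members were divided in Retnlg. It was found in 30 members and at 0 in 31, with 16 members at 10 UMIs or more and 182 of its 599 UMIs in 1 cell. This split was chosen after the values were seen and carries no test. Members with Retnlg had a median of 1075 UMIs and 9.04% S100a8 and S100a9, and those without 959 UMIs and 6.74%. Csf3r was seen in 26 of 30 and 21 of 31, Cxcr2 in 21 and 20, and Il1b in 21 and 20, so the identity genes were on both sides.

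Genes higher and lower with Retnlg are examples picked after their values were seen. Slpi stood at 4802 CPM in members with Retnlg and 2118 in those without, Ccl6 at 4948 and 2151, Anxa1 (annexin A1) at 1091 and 261, and Wfdc21 at 922 and 261. Mmp9 went the other way, at 873 and 1760 CPM, and without the 2 deepest members at 1153 and 1760, where it was no longer counted. All 46 BC100530 UMIs lay in members with Retnlg. On the other side, Clec4n, the lectin Dectin-2, had 1 UMI in members with Retnlg and 46 in 16 members without. Fth1, the ferritin heavy chain, stood at 8538 CPM with Retnlg and 42984 without. Per cell, Fth1 took 0.185% to 3.75% of UMIs in members with Retnlg (median 0.783%) and 0.542% to 18.2% in those without (median 2.20%), so the ranges overlap. Cstb stood at 243 and 1597 CPM, Cd9 at 218 and 1434, Cebpb at 1722 and 4236, and Il1r2 at 267 and 684. Of 357 genes compared, 54 were higher and 24 lower with Retnlg by 2-fold and interval.

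**Figure D5:**
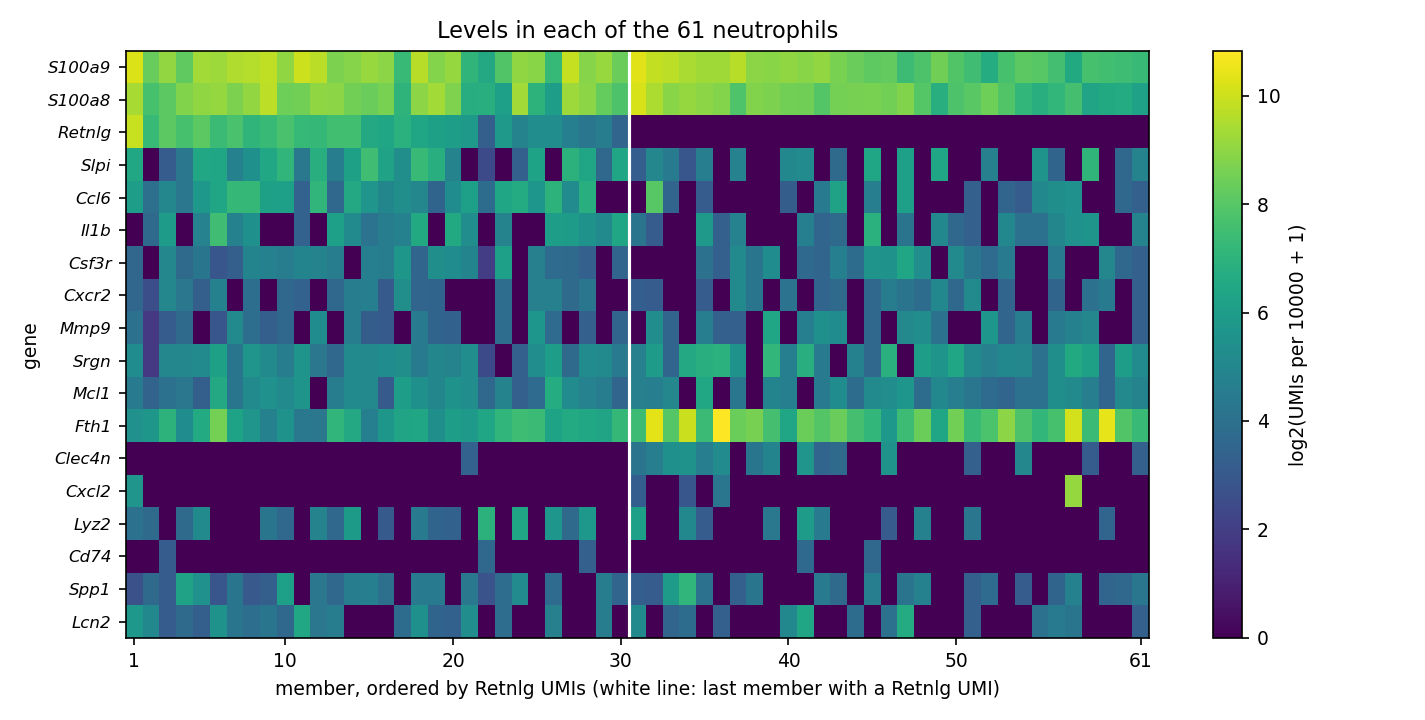
Levels of 18 genes in each of the 61 neutrophils (colour, log2 scale of UMIs relative to the cell's total), with members ordered by Retnlg UMIs and a white line after the 30 that have any. S100a9 and S100a8 are high throughout, Clec4n is found in 1 member left of the line and 16 right of it, and Fth1 is brighter on the right.

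Of 14 genes reported elsewhere to mark aged or tissue neutrophils, 10 were found, with 151 UMIs in all, of which Cxcl2 gave 77, Cd14 24 and Cxcr4 19. Their summed level was 2099.7 CPM against 579 in monocytes and 422 in macrophages, but 64 of the 77 Cxcl2 UMIs lay in 1 cell. Siglecf had 4 UMIs in 4 members, Cd274 2 and Ptgs2 1, while Icam1, Vegfa, Tnfrsf10b and Dcstamp had 0. Hcar2, a receptor for hydroxybutyrate and niacin, stood at 195 CPM in 7 members, with 0 UMIs in monocytes. Of these 14 genes 2 of 6 were higher and 1 lower than in monocytes (median -0.62, or 0.21 with genes at 0 set to 3 UMIs), and 4 of 11 higher and 0 lower than in macrophages (median 1.22). Of 12 lipid mediator enzymes, 1 of 6 was higher and 0 lower than in monocytes (median 0.60). Against macrophages 4 of 10 were higher and 2 lower (median 0.80). Hdc, which makes histamine, stood at 362 CPM in 18 members with 0 UMIs in monocytes. Alox5ap, the partner of the leukotriene enzyme Alox5, stood at 2002 CPM in 52 members against 1193 and 358. Interferon-induced genes gave 3 higher and 2 lower of 17 against monocytes (median 0.44) and 5 higher and 1 lower of 19 against macrophages (median 0.64). Slfn1 stood at 1154 CPM against 214 and 22.0, whereas Bst2 had 0 UMIs and Isg15 3.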

How the data were processed

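The data were 1 filtered 10x matrix per library; its values are UMI counts per gene and cell as the authors deposited them. Cell Ranger 3.1.0 is named per the file headers. Cell Ranger 3.0.2, Seurat 3.1.1 and build mm10 stand in the submitters' processing notes. No upstream step was rerun. Classes were cut by fixed marker counts, not by clustering. Members, lists and rules were chosen with earlier results of these data known. UMIs were summed per class and given in CPM with exact Poisson intervals. Log2 ratios had 0.5 UMIs added to each sum, with an exact conditional interval. A gene was compared with at least 20 UMIs over both classes, and higher or lower meant 2-fold with an interval that leaves out 0. The interval condition was added after seeing the data, because 0.5 UMIs equal 6.95 CPM in neutrophils and 0.0838 in macrophages. No p-value was computed. Cells of 1 library are not replicates. Members differ from each other by more than Poisson noise, so intervals for genes held by few cells are too narrow. Named genes were the 12 highest and 12 lowest ratios whose interval leaves out 0, where the class with more had 50 CPM or more, 30 UMIs or more and 2 times the tubule level. Left out were haemoglobin, ribosomal and mitochondrial genes, gene models without a proper symbol, and the genes of the class rules. Other members of the lists were named with the list's counts. Some genes that the rule names are not reported here. Shares of cells with a UMI were also computed with each cell thinned at random to 500 or 1000 UMIs. Sums for 5620 genes were simulated with Poisson noise only, with 200 genes of 50 CPM or more changed 8-fold. In the neutrophil against monocyte comparison 100% were recovered and 1.60% of unchanged genes were called. This checks the code under that noise. It gives no rate of false calls for the real cells, which vary more, nor of recovery at 2-fold. Scrublet through scanpy 1.11.5, scipy 1.17.1 and edgeR 4.0.16 (for trimmed-mean factors only) were used. Aldoa is listed under 2 identifiers, which were kept apart.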

Additional observations from a re-analysis of the deposited data

How the results depend on the processing

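No paired analysis was possible because each genotype has 1 library and the classes come from the same one. The WT count stayed at 0 under all 8 alternatives for members. Members in knockout went to 32 (0.479%) with at least 1000 UMIs per cell, and their share to 1.19% under a 10% mitochondrial limit and 0.580% with S100a8 and S100a9 at 5% or more. Against monocytes 336 genes were higher with at least 50 UMIs over both classes, and against macrophages 450 were lower with at least 1000 UMIs per cell. Without the interval condition, chosen after seeing the data as were the 4 other added alternatives, 871 were higher and 1581 lower than in monocytes, against 534 and 527, and 2047 and 2768 than in macrophages, against 822 and 716. Trimmed-mean factors moved the median of all genes by -0.21 over monocytes and -0.14 over macrophages, and the genes higher among those counted went from 50.3% to 37.4% over monocytes and from 53.4% to 47.4% over macrophages. Sharing the 0.5 UMIs in proportion to the totals moved the medians by -0.24 and -1.10, which shows how far low genes rest on that addition.

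Of the ratios of listed or named genes under all alternatives, 5422 stayed within the counting interval, 188 moved out of it and 17 changed sign. Part of the 5422 was fixed in advance. The alternatives of 2-fold alone, at least 1 UMI, at least 50 UMIs and a mean level of 50 CPM change no ratio. Each of them put all its 331 ratios among those that stayed. No change of sign came under another scaling of the totals. Over monocytes the ones that changed sign were Ace at -1.31 (5% threshold), -1.09 (mean of cells), -1.41 and -1.31 (without the deepest member and the 2 deepest), Saa3 at 0.85 and Slc34a1 at 1.71 (1% threshold), Krt18 at 0.03, Krt8 at 0.49, Lcn2 at 1.73 and Spp1 at 0 (mean of cells), and Umod at 1.69 (stricter monocyte rule). Over macrophages they were F13a1 at 0.82 (1% threshold), Ifngr1 at -0.08 and Plac8 at -0.20 (5% threshold), Umod at 0.80 (doublets removed), and Plac8 at -0.23 and -1.27 (without the deepest member and the 2 deepest). The cause was not tested, other than that leaving out 1 cell ends the Ace and Plac8 calls. Leaving out that cell also ended calls without a change of sign, which the list counts above still include. Over monocytes these were Il18, Itgal, Itgb2, Lcn2 and Tgm2. Over macrophages they were Cd47, Gdf15, Ifitm3 (1.00 to 0.73), Ifngr1 (1.06 to 0.42), Nr4a1, Sdhb, Tbxas1 and Treml4. Depth limits the rest: 0 UMIs in neutrophils allows 41.7 CPM.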

Other observations

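Outside the neutrophil rule, 17 kept knockout barcodes held both a Csf3r and a Cxcr2 UMI, with a median of 1022 UMIs, and 12 of them had an S100a8 or S100a9 UMI, the highest share being 1.96%. Among the members, 34 held both receptors. The WT library held 3 Csf3r and 3 Cxcr2 UMIs over all kept cells and 0 of Retnlg and Mmp9. Without the 2 members above 3000 UMIs, 28 members with Retnlg and 31 without were left, and 37 of 357 genes were higher and 26 lower with Retnlg. Ftl1, the ferritin light chain, stood at 7883 CPM with Retnlg and 10656 without, a smaller difference than that of Fth1.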
